A study of Oncorhynchus mykiss with 48 samples.

Results

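A set of 200 genes was followed whose liver transcripts were already detected in juvenile Control trout and were more abundant at 1 year in Control fish of both generations, F2 and F1. The genes were chosen by their levels in the 16 Control fish alone, from 46585 genes in the deposited tables. Genes with the HIDATA mark, by which Cuffdiff flags a locus with too many fragments to process, were left out, as were the 100 most abundant of the remaining 46568 genes. A gene had to reach 1 CPM (its fragments scaled to the library total of the fish) on average in Control fish at both early stages, which 14740 genes did. Its log2 ratio of mean levels, with 0.5 CPM added to each, had to be at least 1 at 365 days post fertilization (dpf) over the early stage in F2 and in F1. These limits were passed by 1037 genes, and the 200 with the highest smaller ratio were kept and numbered from 1 to 200 in that order.

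The liver of a young trout grows while the fish moves from early feeding to a larger, energy-storing juvenile, and it makes plasma proteins, processes lipids and carbohydrates, and clears foreign compounds. A growing liver holds parenchymal cells together with blood, vessel, bile duct and immune cells, so that transcript levels in whole tissue reflect each cell's activity and the mix of cells. Bisphenol A (BPA) is a plastics chemical with weak oestrogen-like activity that females can pass to their eggs.

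Liver RNA was sequenced from 48 rainbow trout, 4 fish in each of 12 groups. F2 fish at 365 and 112 dpf were offspring of F1 females of each treatment and untreated males, and F1 fish at 365 and 140 dpf grew from F0 eggs that held 0 (Control), 4 (BPA4) or 40 (BPA40) ng BPA after a short incubation in ovarian fluid, with ethanol vehicle for Control. BPA was added only to the F0 eggs, and the paper reports that it declined in the F1 embryos and was below detection at hatch. It was also undetectable in the eggs of the F1 females that gave F2. In F2 the names BPA4 and BPA40 thus stand for the treatment of the F0 eggs, not for BPA measured in the eggs of F2 fish. Food was withheld from all fish before sampling. F1 fish came from several tanks per treatment, while F2 fish of a treatment shared 1 tank, so tank and treatment cannot be told apart in F2. The labels give no tank, sex, sequencing run or date for a fish. Each time point is a table of different fish, so that age cannot be told apart from whatever else the libraries of a time point share. In whole liver, a lower level can mean fewer cells of a type or less RNA per cell, which cannot be told apart.

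Genes carry the identifiers of the trout genome annotation, and no gene names stand beside them. Of the 46585 identifiers, 0 matched the RefSeq table at hand, so that no gene is named here, no role is given, no sequence is shown and the liver label was not checked against marker genes. Only 4 identifiers are printed, and the other genes are given by their number. Genes with near-identical copies or overlapping neighbours, which are common in the trout genome, could not be recognised, and their fragments may be divided between copies.

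Total fragments per fish without the HIDATA genes, on which CPM rest, lay between 6244010 and 18668663. The TMM factor, which rescales a library total for differences in composition, was 0.9943 to 1.6077 in F2 fish at 365 dpf, against 0.5988 to 0.8304 in F2 fish at 112 dpf, while it ran from 0.9752 to 1.3016 in F1 fish at 365 dpf and from 0.8081 to 1.1596 in F1 fish at 140 dpf. With raw totals, the median log2 ratio of all 26296 genes tested was 1.10 in BPA40 and 1.02 in BPA4 fish of F2 at 365 over 112 dpf, against 0.42 and 0.41 with TMM. Levels of single fish are given below as CPM on raw totals, and fold changes on the TMM scale of the fit, which is why a change over age in F2 is smaller in the fit than in the CPM values. One Control fish that the choice used stood apart, F2 365 dpf replicate 0, with a TMM factor of 0.9943 against 1.2645 to 1.3517 in the other 3 Control fish. In that fish 160 of the 200 genes were below all 3 others and 10 were above all 3. A choice made without it kept 192 of the 200 genes, and all 200 still passed the limits. Other ways of scaling changed the list more. TMM-scaled totals kept 166 genes and totals without the 100 most abundant genes kept 151, with all 200 still past the limits. Group medians kept 164, with 183 past the limits.

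The choice fixed the Control levels, which are given as a description. Over the 200 genes, the median log2 ratio in Control fish was 3.21 in F2 and 2.28 in F1, and the smallest was 1.8482 in F2 and 1.8507 in F1. The end of the list was not marked by a step. The smaller ratio was 1.8482 for the last gene kept and 1.8476 for the first gene left out, and it lay between 1.8482 and 1.8602 for the last 5 genes kept and between 1.8387 and 1.8476 for the next 5 genes. The ratio of fragments to FPKM, which scales with transcript length, had a median of 0.968 relative to the typical expressed gene for the 200 genes and 0.997 for the 14740 expressed genes.

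The 200 genes together made up a larger part of the liver RNA in yearlings than in juveniles. Shares are of all fragments outside the HIDATA genes. The 200 genes summed to 2.59% ± 0.28 in BPA40, 2.78% ± 0.59 in BPA4 and 2.16% ± 0.66 in Control F2 fish at 365 dpf (SD, n = 4 each). At 112 dpf the shares were 0.171% ± 0.021, 0.180% ± 0.054 and 0.158% ± 0.061. In F1 the share was 2.60% ± 0.75 in BPA40, 2.71% ± 0.51 in BPA4 and 3.46% ± 0.46 in Control fish at 365 dpf, against 0.633% ± 0.214, 0.734% ± 0.197 and 0.552% ± 0.132 at 140 dpf. In every one of the 24 fish at 365 dpf the share was above that of every earlier fish of either generation. The shares of the Control fish rest on values that the choice used, and those of the BPA fish do not. The BPA fish do have in common with those Control fish whatever the libraries of a time point share.

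**Figure D1:**
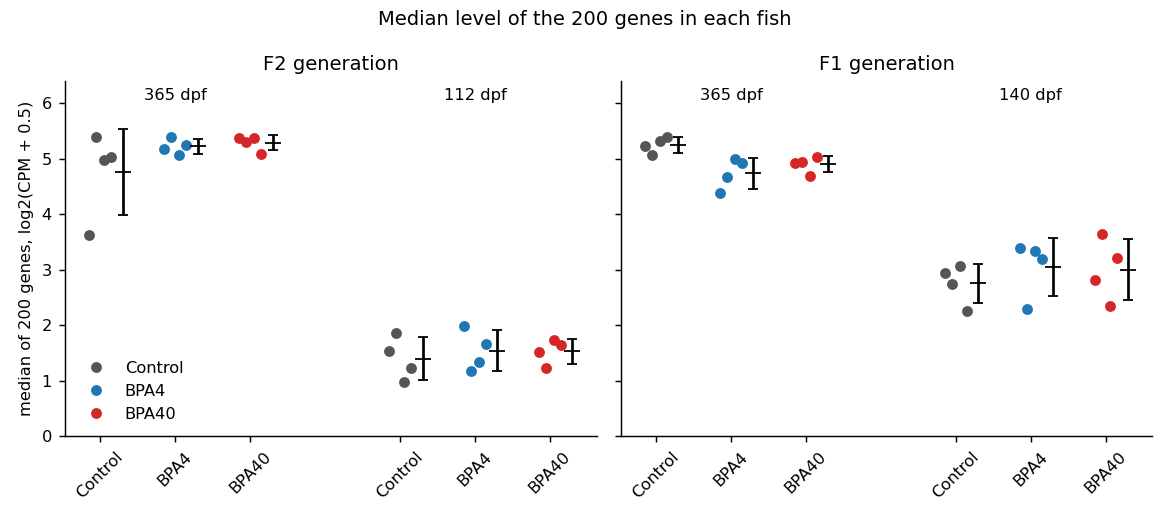
Median level of the 200 genes in each fish, as log2(CPM + 0.5) with CPM on raw totals, for F2 (left) and F1 (right), 365 dpf left of the early stage. Points are fish and bars show the mean and SD of 4 fish. BPA fish lie between 4.38 and 5.40 at 365 dpf and between 1.18 and 3.64 at the early stages, and F2 365 dpf Control replicate 0 lies at 3.63, below the other 3 Control fish of its group.

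Few genes made up much of this share. The 5 with the most fragments held 26.9% of the sum in BPA40 and 29.5% in BPA4 fish of F2 at 365 dpf, and numbers 179, 97 and 156 were among the first 5 in all 6 groups at 365 dpf. The median over the genes' group means was 39.2 CPM in BPA40 and 38.6 CPM in BPA4 fish of F2 at 365 dpf, against 2.51 and 2.60 CPM at 112 dpf. In F1 it was 32.7 CPM in BPA40 and 28.0 CPM in BPA4 fish at 365 dpf, against 8.09 and 8.35 CPM at 140 dpf. The early F2 level was thus close to the limit of 1 CPM for many genes, and 20 of the 200 had no fragment in F2 112 dpf BPA4 replicate 1, the fish with the fewest fragments.

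Levels can be compared between genes only per length, as FPKM, and each time point was scaled on its own. Within a table, the 200 genes had a median of 15.9 FPKM in BPA40 fish and 14.8 FPKM in BPA4 fish of F2 at 365 dpf, where the 14740 expressed genes had 4.64 and 4.62 FPKM. At 112 dpf the order was the other way, with 0.992 FPKM in BPA40 and 1.10 FPKM in BPA4 fish for the 200 genes and 3.19 and 3.22 FPKM for the expressed genes. In F1 the 200 genes had 13.4 FPKM in BPA40 and 13.0 FPKM in BPA4 fish at 365 dpf, against 4.00 and 4.04 FPKM for the expressed genes. At 140 dpf they were below the expressed genes by less than in F2 at 112 dpf. They had 2.87 FPKM in BPA40 and 3.65 FPKM in BPA4 fish, against 4.08 and 4.05 FPKM for the expressed genes. Ranked by FPKM, the median place of the 200 genes was 3321 in BPA40 fish of F2 at 365 dpf, against 12381 at 112 dpf. The highest level was that of number 176, with 4951 ± 1318 FPKM in BPA40 and 5773 ± 4616 FPKM in BPA4 fish of F2 at 365 dpf (SD, n = 4 each). By their mean over all BPA yearlings, numbers 1, 179, 93 and 99 followed, with 1074 ± 266, 1128 ± 231, 663 ± 144 and 753 ± 577 FPKM in the BPA40 fish of F2.

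The change with age was then tested in the 32 BPA fish, which the choice had not used. One edgeR quasi-likelihood fit of the 8 BPA groups tested 26296 genes, the 200 among them, with Benjamini-Hochberg adjustment over all of them and a threshold of 0.05 for a call. The p-values measure only the spread between the fish sampled, which shared tanks. In all 4 comparisons of 365 dpf with the early stage most of the 200 genes were called higher. By edgeR 0 were called lower, 0 were lower at an unadjusted p under 0.05, and DESeq2 called 0 lower.

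In BPA40 fish of F2, 188 of the 200 genes were called higher with age. Of all genes tested, 41.5% were called higher and 28.4% lower. In BPA4 fish of F2, 184 were called higher, where 41.1% of all genes were called higher and 28.4% lower. In BPA40 fish of F1, 158 were called higher, against 18.9% of all genes called higher and 12.6% lower. In BPA4 fish of F1, 149 were called higher, against 11.4% of all genes called higher and 7.5% lower. Called or not, the log2 fold change was positive for 199, 195, 195 and 198 of the 200 genes, in that order of groups. Of all genes tested, 59%, 58.5%, 54.4% and 54.7% had a positive one. Among the 14740 genes that met the same early minimum, the shares called higher were 23.1% and 23.2% in BPA40 and BPA4 fish of F2 and 8.64% and 5.45% in BPA40 and BPA4 fish of F1. By DESeq2 192, 188, 173 and 165 of the 200 genes were called higher, in the same order of groups. The shares above are those of edgeR. The shares of all genes that DESeq2 called higher or lower are not given here, so its counts have no background beside them. A list chosen without the Control fish that stood apart gave 189, 185, 159 and 148 genes.

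The count in BPA4 fish of F1 rested on 1 early fish more than the others did. Without F1 140 dpf BPA4 replicate 1, 89 of the 200 genes were called higher instead of 149, and 1776 genes in all were called in either direction instead of 4971. The fish had a median of 4.38 CPM over the 200 genes, against 8.68 to 10.1 CPM in the other 3 fish of its group, and its TMM factor of 0.8081 was below theirs. Leaving out any other fish of that comparison left 111 to 140 genes called, and the shares of all genes called there are not given here.

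The sizes of the change were as follows, on the log2 scale of the edgeR fit. The median over the 200 genes was 2.90 in BPA40 and 3.02 in BPA4 fish of F2, where the median of all genes tested was 0.56 and 0.53. In F1 it was 1.91 in BPA40 and 1.68 in BPA4 fish, where the median of all genes was 0.12 and 0.10. At least a log2 fold change of 2 was fitted to 163 and 161 genes in BPA40 and BPA4 fish of F2 and to 80 and 56 genes in BPA40 and BPA4 fish of F1. The mean change of both doses was larger in F2 than in F1 for 181 of the 200 genes. The share of all genes for which this held is not given here. Over all genes tested, a log2 fold change of at least 1 was fitted to 42.9% in both doses of F2. In F1 it was fitted to 23.1% in BPA40 and 18.5% in BPA4 fish. The early stages differ in age (112 dpf in F2 and 140 dpf in F1), and the difference in change between generations was not tested.

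**Figure D2:**
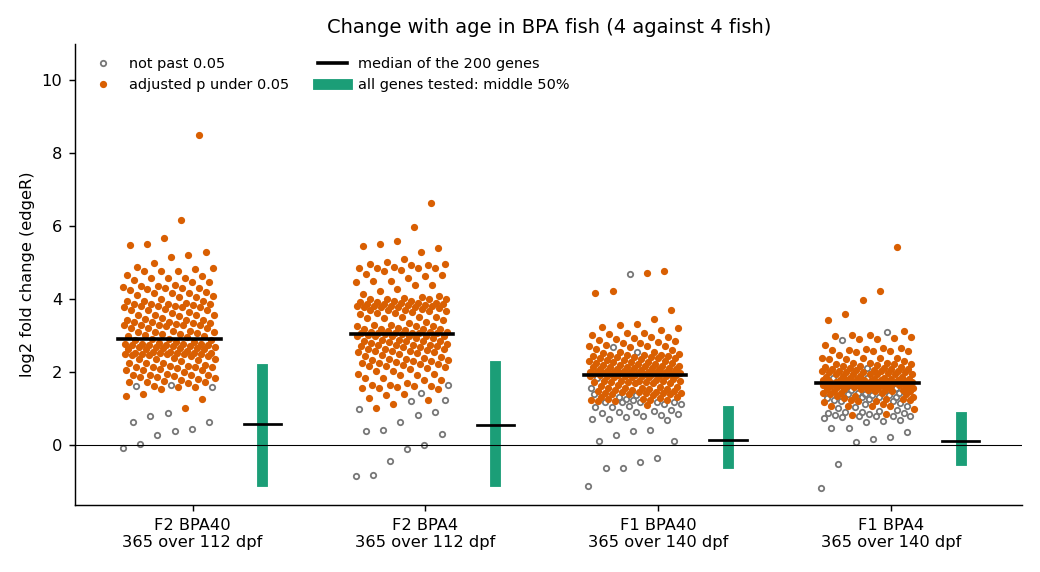
Log2 fold change with age (edgeR, 4 against 4 fish) of each of the 200 genes in BPA40 and BPA4 fish of F2 and F1. Filled points passed the adjusted threshold of 0.05, black lines are medians, and green bars span the middle 50% of all 26296 genes tested. Medians of the 200 genes are 2.90, 3.02, 1.91 and 1.68 from left to right, above the green bars in all 4 groups.

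Single fish were also compared without a model, here on CPM scaled by the TMM factors of the fit. Every fish at 365 dpf was above every early fish for 182 and 170 of the 200 genes in BPA40 and BPA4 fish of F2. The shares of all genes were 37.8% and 36.9%. In F1 the fish were separated in this way for 135 and 143 genes in BPA40 and BPA4 fish, against 18.3% and 16.5% of all genes. In all 4 comparisons together, 128 of the 200 genes were called higher, against 8.24% of all genes tested and 3.55% of those that met the early minimum. A further 42 genes were called in 3 comparisons, 17 in 2, 7 in 1 and 6 in 0.

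The calls were also counted by place in the list. In bins of 50 genes from the head of the list to its end, 41, 44, 38 and 35 genes were called in BPA40 fish of F1 and 38, 41, 40 and 30 in BPA4 fish of F1. The last bin had the fewest calls in both doses, and the second the most. In F2 the bins had 47, 47, 48 and 46 calls in BPA40 fish and 46, 47, 45 and 46 in BPA4 fish. Of the 837 genes that passed the Control limits but were not kept, 738 and 713 were called in BPA40 and BPA4 fish of F2, which is 88.2% and 85.2%, as were 527 and 371 in BPA40 and BPA4 fish of F1, which is 63.0% and 44.3%. These shares are a description, with no test between the lists.

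The gene at the head of the list was GSONMT00008810001 (number 1). It had 769, 735, 627 and 372 CPM in BPA40 fish of F2 at 365 dpf, against 23.9, 8.54, 7.30 and 47.4 CPM at 112 dpf. In BPA4 fish of F2 it had 572, 2386.5, 614 and 860.4 CPM at 365 dpf, against 20.5, 33.0, 0.584 and 20.01 CPM at 112 dpf. No early fish came near a yearling in either dose, although 1 BPA4 yearling was far above its group and 1 BPA4 juvenile far below. The log2 fold change was 3.79 ± 0.73 (SE) in BPA40 and 4.95 ± 0.77 in BPA4 fish of F2 (adjusted p from edgeR, 5.18e-05 and 2.66e-06). In F1 the gene had 546, 818, 939 and 954 CPM in BPA40 fish at 365 dpf, against 56.2, 36.4, 53.8 and 13.6 CPM at 140 dpf. BPA4 fish of F1 had 788, 1523, 688 and 1170.5 CPM at 365 dpf, against 34.6, 91.2, 56.9 and 136 CPM at 140 dpf. Again the groups did not overlap, and the log2 fold changes were 4.20 ± 0.74 and 3.59 ± 0.72 in BPA40 and BPA4 fish (edgeR adjusted p = 0.000407 and 0.00241). Among Control yearlings, which the choice used, the gene was at 805, 541, 1029 and 23.8 CPM in F2, so that 1 Control fish was at a juvenile level, and at 2952, 1588, 294 and 1429 CPM in F1.

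GSONMT00039513001 (number 2) was at 87.7, 137, 305 and 359.6 CPM in BPA40 fish of F2 at 365 dpf, against 0.901, 2.19, 1.86 and 5.23 CPM at 112 dpf. In BPA4 fish of F2 it was at 471, 461, 179 and 345 CPM at 365 dpf, against 2.05, 1.60, 1.07 and 3.40 CPM at 112 dpf. The yearlings were far above the juveniles in both doses, with log2 fold changes of 5.50 ± 0.66 and 6.61 ± 0.69 in BPA40 and BPA4 fish (edgeR adjusted p = 4.12e-08 and 4.94e-09). In F1 it was at 54.0, 28.3, 52.0 and 43.1 CPM in BPA40 fish at 365 dpf, against 3.01, 8.59, 1.57 and 2.53 CPM at 140 dpf. BPA4 fish of F1 at 365 dpf had 31.9 and 39.7 CPM in 2 fish and 198 and 156 CPM in the other 2, against 2.12, 2.86, 2.374 and 2.30 CPM at 140 dpf. All yearlings were above all juveniles, and the log2 fold changes were 3.45 ± 0.59 and 5.41 ± 0.65 in BPA40 and BPA4 fish (edgeR adjusted p = 0.000344 and 2.54e-05).

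**Figure D3:**
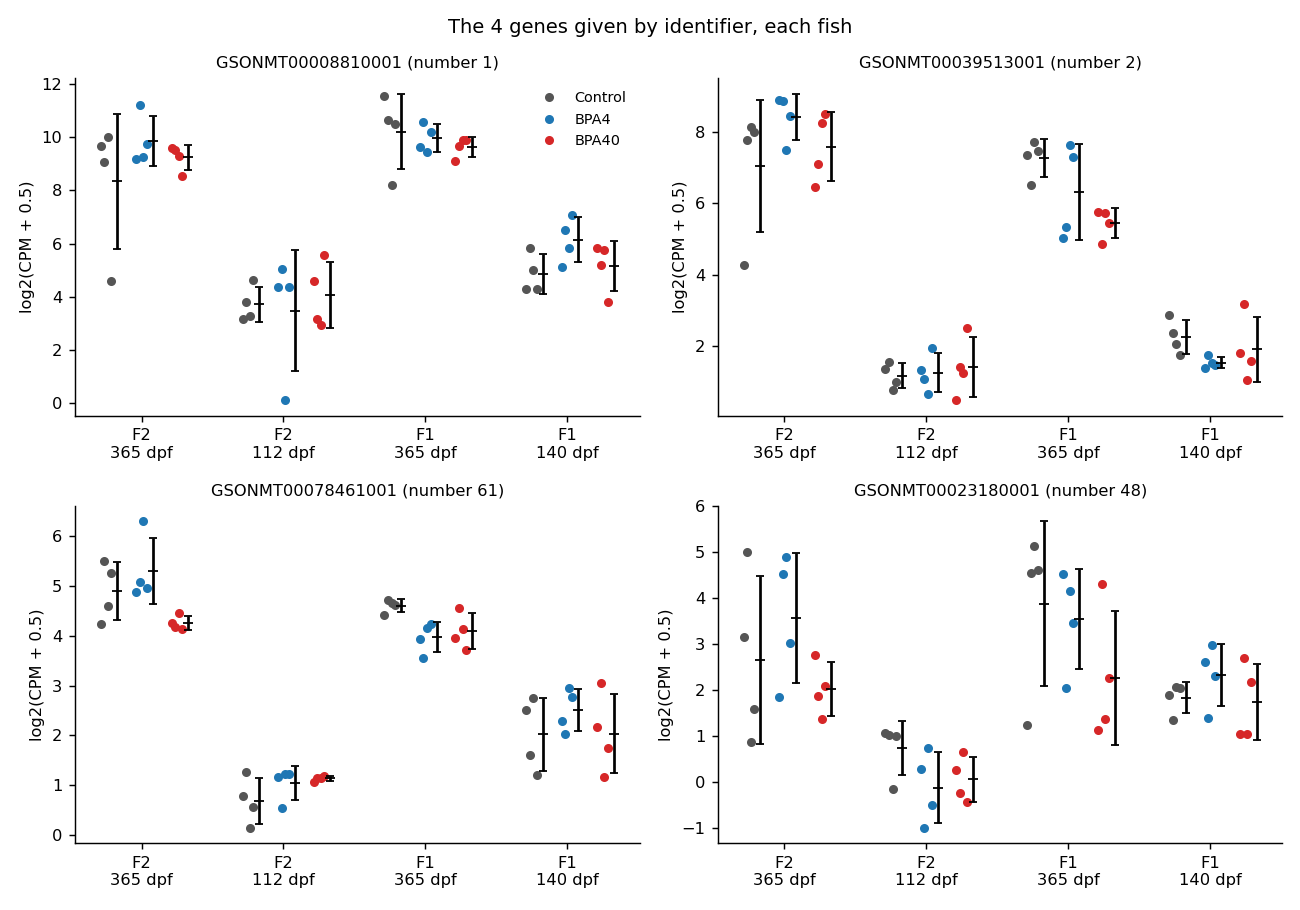
Level of the 4 genes given by identifier in each of the 48 fish, as log2(CPM + 0.5), by generation and age, with Control, BPA4 and BPA40 in order of dose. Points are fish and bars show the mean and SD of 4 fish. Numbers 1 and 2 are higher in all BPA yearlings than in the BPA juveniles of their generation, while number 48 overlaps between ages in F1.

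Genes 3 to 10 differed in how steady the rise was. Number 7 was called in all 4 comparisons, with log2 fold changes of 2.82 ± 0.38 and 3.60 ± 0.39 in BPA40 and BPA4 fish of F2 and 3.07 ± 0.38 and 2.15 ± 0.37 in BPA40 and BPA4 fish of F1. Numbers 3, 4, 5 and 6 were also called in all 4, with log2 fold changes between 2.07 and 6.16. Numbers 8, 9 and 10 were not called in every comparison. Number 8 was called in F2 and not in F1, and its levels were spread over orders of magnitude within a group: 0.830, 16.8, 195.5 and 235 CPM in BPA40 fish of F2 at 365 dpf, against 0, 0.115, 0.429 and 0 CPM at 112 dpf. In BPA4 fish of F1 it was at 7.50, 438, 338 and 2.90 CPM at 365 dpf, against 58.0, 28.3, 0.190 and 0.0851 CPM at 140 dpf. Yearlings and juveniles overlapped there, and the log2 fold change was 3.09 ± 1.80. Number 9 was called in both doses of F1 and in neither dose of F2, where its log2 fold change was 1.59 ± 0.85 and 1.23 ± 0.84 in BPA40 and BPA4 fish, and number 10 was called in F2 only. Whether their changes differ between generations was not tested.

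Numbers 179, 97 and 156, with the most fragments in BPA40 yearlings of either generation, rose in all 4 comparisons. Number 179 had 1739, 2070.3, 2199 and 2307 CPM in BPA40 fish of F2 at 365 dpf, against 22.9, 17.0, 76.0 and 47.1 CPM at 112 dpf. In F1 it had 1794, 2009, 1628 and 2587 CPM in BPA40 fish at 365 dpf, against 378, 877, 207 and 765 CPM at 140 dpf. The ranges of the yearlings overlapped between generations, while those of the juveniles did not. Its log2 fold change was 4.75 ± 0.45 and 4.91 ± 0.45 in BPA40 and BPA4 fish of F2 and 1.85 ± 0.40 and 1.71 ± 0.39 in BPA40 and BPA4 fish of F1 (edgeR adjusted p from 7.66e-10 to 0.0052). The log2 fold changes of numbers 97 and 156 ran from 1.83 to 3.44 and from 1.41 to 2.72. Number 99, next by fragments in BPA40 yearlings, was uneven, with 73.3, 827, 1918 and 1294 CPM in BPA40 fish of F2 at 365 dpf, against 4.71, 2.08, 5.44 and 48.1 CPM at 112 dpf. It was called in both doses of F2 and in neither dose of F1. The gene with the highest FPKM, number 176, was not called in any: it had 648, 406, 491 and 271 CPM in BPA40 fish of F2 at 365 dpf, against 257, 140.0, 54.3 and 188 CPM at 112 dpf, and a log2 fold change of 0.37 ± 0.45. In Control fish of F2 it had 304, 221, 421 and 97.8 CPM at 365 dpf, against 115, 30.8, 23.4 and 103 CPM at 112 dpf, which are among the values that put it on the list.

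Besides number 176, 5 genes were called in none of the 4 comparisons: numbers 47, 52, 125, 140 and 168. Number 47 was at 0.757, 2.101, 0.979 and 2.03 CPM in BPA4 fish of F1 at 365 dpf, against 1.33, 1.34, 8.17 and 2.13 CPM at 140 dpf. Its Control values in F1 were 13.1, 11.99, 7.48 and 2.24 CPM at 365 dpf, against 1.86, 0.771, 1.09 and 0.517 CPM at 140 dpf, so that a rise seen in the Control fish that chose it was not seen in BPA4 fish. Number 52 ran from 33.5 to 330.0 CPM in BPA40 fish of F2 at 365 dpf and from 1.20 to 187 CPM in BPA40 fish of F1 at 140 dpf. In all, 8 genes had a negative log2 fold change in at least 1 of the 4 comparisons, numbers 47, 50, 52, 113, 125, 146, 162 and 178, and none of these negative changes passed the test. The smallest was that of number 47 in BPA4 fish of F1, at -1.18 ± 0.72. Of the last 5 genes of the list, 3 of them were called in all 4 comparisons, number 198 in 3 and number 200 in 1.

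The question of dose was put to BPA40 against BPA4 fish at each time point, a comparison without Control fish. Of the 200 genes, 0 were called at any of the 4 time points by edgeR. At an unadjusted p under 0.05, 28 genes were found at F2 365 dpf, 8 at F2 112 dpf, 12 at F1 365 dpf and 14 at F1 140 dpf, where 6.23%, 6.91%, 5.02% and 8.13% of all genes tested were at that level. The 200 genes were above that share at F2 365 dpf and near or below it at the other 3 time points. With the adjusted threshold, 0.0152% and 0.0228% of all genes were called higher and lower in BPA40 at F2 365 dpf, 0.00761% and 0.0038% at F2 112 dpf, 0.0038% and 0% at F1 365 dpf, and 0.0761% and 0.0152% at F1 140 dpf. DESeq2 called 1 of the 200 genes higher in BPA40 at F2 365 dpf and 1 at F1 365 dpf, and 0 at both early stages. Its shares of all genes are not given here. The median log2 fold change over the 200 genes was -0.14, 0.04, 0.08 and -0.17 at F2 365, F2 112, F1 365 and F1 140 dpf, where the median of all genes was -0.03, 0.03, 0.03 and 0.02. At F2 112 dpf the sign depended on the scaling, since the median of the 200 genes was -0.02 with raw totals. The standard error of a single gene was about 0.43 to 0.50 (medians over the 200 genes), with 4 fish a group. A dose difference about as large as this error was not detectable. Differences of single genes well above their own error, given below, did not pass the adjusted threshold either. The absence of calls thus does not limit a dose difference to the size of this error.

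**Figure D4:**
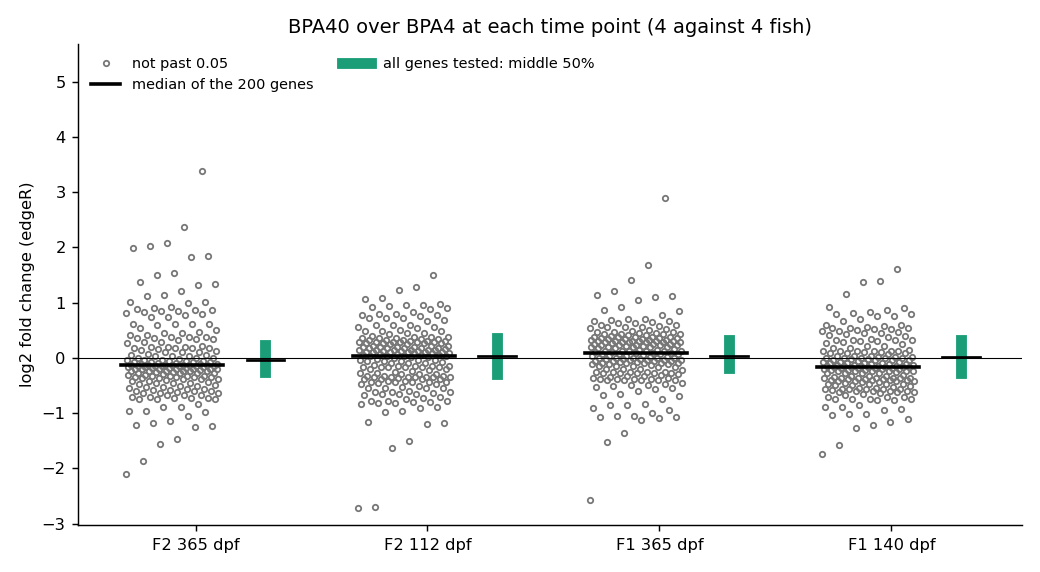
Log2 fold change of BPA40 over BPA4 (edgeR, 4 against 4 fish) of each of the 200 genes at the 4 time points. Black lines are medians and green bars span the middle 50% of all 26296 genes tested. Open points did not pass the adjusted threshold of 0.05, which is all of them, and the medians lie between -0.17 and 0.08.

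Among genes lower in BPA40 at F2 365 dpf, the smallest p-value belonged to GSONMT00078461001 (number 61). It had 18.5, 17.6, 21.4 and 17.2 CPM in BPA40 fish, against 29.0, 33.4, 77.7 and 30.6 CPM in BPA4 fish. All BPA40 fish were below all BPA4 fish, and 1 BPA4 fish was well above the other 3. Its log2 fold change was -1.23 ± 0.30, which did not pass the test over all genes (edgeR adjusted p = 0.247). Control fish of the same age, at 18.4, 44.7, 23.8 and 37.97 CPM, overlapped with both doses. The second was GSONMT00023180001 (number 48), with 6.34, 3.16, 2.102 and 3.74 CPM in BPA40 fish, against 3.10, 22.6, 29.3 and 7.59 CPM in BPA4 fish. The doses overlapped, and its log2 fold change of -2.10 ± 0.69 did not pass the test (edgeR adjusted p = 0.48). In Control fish it ran from 1.33 to 31.6 CPM. Both genes were picked here for their small p-values.

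Higher in BPA40 at the same stage, without passing the test, were numbers 50 and 13. Number 50 had 81.2, 813, 85.3 and 447 CPM in BPA40 fish, against 19.97, 37.1, 53.4 and 26.1 CPM in BPA4 fish of F2 at 365 dpf, a log2 fold change of 3.38 ± 0.84 (edgeR adjusted p = 0.277). At F1 365 dpf it went the other way, with 2.46, 44.99, 11.98 and 15.1 CPM in BPA40 fish, against 74.2, 36.7, 128 and 183 CPM in BPA4 fish, and again without passing the test (log2 fold change -2.58 ± 0.82). Number 13 had 299, 243, 303 and 372 CPM in BPA40 fish, against 55.3, 130.2, 46.3 and 57.6 CPM in BPA4 fish of F2 at 365 dpf, with no overlap and a log2 fold change of 2.02 ± 0.53 (edgeR adjusted p = 0.278). These 2 genes were chosen after their values were seen.

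Whether the change with age itself differed between BPA40 and BPA4 fish was tested as an interaction. By edgeR, 0 of the 200 genes were called in F2 and 0 in F1, as were 0% of all genes tested in either generation. DESeq2 also called 0 of the 200 in both, and its shares of all genes are not given here. At an unadjusted p under 0.05 there were 20 genes in F2 and 14 in F1, where 6.59% and 2.56% of all genes tested were at that level.

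F2 and F1 fish could be compared at 365 dpf, the one age sampled in both. The fish of the 2 generations were held in different tanks and belong to different time points. Generation thus cannot be told apart from tank or from whatever else the libraries of a time point share. In BPA40 fish, 4 of the 200 genes were called higher in F2 and 0 lower, where 0.43% of all genes were called higher and 0.145% lower. In BPA4 fish, 5 were called higher in F2 and 2 lower, where 1.1% of all genes were called higher and 0.924% lower. The yearling levels of most of the 200 genes thus gave no call between generations, with a median log2 fold change of -0.12 in BPA40 and 0.15 in BPA4 fish. With raw totals in place of TMM the median ratio of all genes was 0.21 in BPA40 and 0.28 in BPA4 fish, against -0.04 and 0.02 with TMM, and that of the 200 genes was 0.19 and 0.44. The calls were then 9 higher and 0 lower in BPA40 fish and 14 higher and 2 lower in BPA4 fish. The shares of all genes called without TMM are not given here, so the added calls are not read as a result about the 200 genes. The counts also turned on single fish. In BPA40 fish they were 0 and 1 without F1 replicates 0 and 1, 9 without F1 replicate 3 and 2 without F2 replicate 1. In BPA4 fish they were 2 to 4 without any 1 of the 4 F1 fish or of F2 replicates 1, 2 and 3. The shares of all genes called without these fish are not given here.

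Called higher in F2 than in F1 among BPA40 yearlings were numbers 13, 50, 165 and 183. Number 13 had the 299, 243, 303 and 372 CPM given above in F2, against 14.2, 20.2, 33.9 and 65.6 CPM in F1, a log2 fold change of 2.84 ± 0.55 (edgeR adjusted p = 0.0131). Number 183 had 95.2, 77.9, 79.4 and 112 CPM in F2, against 12.5, 10.2, 20.6 and 20.9 CPM in F1. The generations did not overlap for either gene, and the log2 fold change of number 183 was 2.2005 ± 0.44 (edgeR adjusted p = 0.0186). Number 165 had 99.5, 93.9, 61.1 and 45.6 CPM in F2, against 12.7, 12.3, 32.3 and 19.4 CPM in F1 (log2 fold change 1.67 ± 0.37). Control yearlings had 20.7 to 49.1 CPM of number 13 in F2, against 32.8 to 157 CPM in F1, and 17.3 to 25.5 CPM of number 183 in F2, against 21.2 to 31.6 CPM in F1. Number 165 had 33.6, 43.8, 33.9 and 74.7 CPM in Control yearlings of F2, against 37.4, 38.2, 24.5 and 14.97 CPM in those of F1, and number 50 had 10.4 to 73.5 CPM in F2, against 2.44 to 156 CPM in F1. The Control generations overlapped for all 4 genes, with the F2 mean higher for number 165 and lower for the other 3. Those Control values were used in the choice, and no test was made with them.

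Among BPA4 yearlings, numbers 61, 103, 150, 157 and 160 were called higher in F2 than in F1. Number 150 had 19.3, 14.6, 11.6 and 11.95 CPM in F2, against 3.65, 1.75, 4.63 and 3.91 CPM in F1, with a log2 fold change of 1.72 ± 0.33 (edgeR adjusted p = 0.00652). Its generations did not overlap. Numbers 20 and 129 were called lower in F2. Number 20 had 108, 62.7, 5.29 and 53.0 CPM in F2, against 318, 226, 488 and 564 CPM in F1, a log2 fold change of -3.10 ± 0.68 (edgeR adjusted p = 0.0155). Number 129 had 13.0, 9.83, 0.680 and 7.44 CPM in F2, against 55.5, 25.5, 51.2 and 82.9 CPM in F1 (log2 fold change -3.10 ± 0.76). The same F2 fish was lowest for both genes.

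BPA fish were also set beside Control fish as a description only, because the Control values chose the list. The choice favoured high Control values at 365 dpf and low Control values at the early stage, in F2 and in F1. Its part in the following values was not tested. At F1 365 dpf, 162 of the 200 genes were lower in BPA40 and 187 lower in BPA4 than in Control. The median log2 ratios were -0.32 and -0.42 on raw totals. At F1 140 dpf, 140 genes were higher in BPA40 and 162 higher in BPA4, with medians of 0.20 and 0.30. At F2 112 dpf the medians were 0.03 in BPA40 and 0.04 in BPA4. At F2 365 dpf, 152 genes were higher in BPA40 and 160 higher in BPA4 than in Control, with medians of 0.29 and 0.40, and without Control replicate 0 the medians were 0.05 and 0.17, with 108 and 126 genes higher. The expressed genes had medians of 0.09 and 0.05 at F2 365 dpf, -0.19 and -0.17 at F2 112 dpf, 0.10 and 0.03 at F1 365 dpf, and 0.10 and 0.03 at F1 140 dpf, in BPA40 and BPA4 fish each time. Both doses share the same Control fish, so that their values are not independent.

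The 200 genes also varied between fish of a group. The median SD of log2(CPM + 0.5) on the TMM scale was 0.39 in BPA40 and 0.46 in BPA4 fish of F2 at 365 dpf for the 200 genes, and 0.25 and 0.26 for the 14740 expressed genes. In F1 140 dpf fish it was 0.74 in BPA40 and 0.57 in BPA4 for the 200 genes, and 0.35 and 0.34 for the expressed genes. The median SD of the list was above that of the expressed genes in all 12 groups. The SDs of the Control groups rest on values that the choice used, so only those of the BPA groups are independent of it. The part of level in this difference was not tested. Many genes deviated together in some fish. In F1 365 dpf BPA40 replicate 3, 150 of the 200 genes were above their group mean, and in replicate 2 of the same group 37 were. In F1 140 dpf BPA4 replicate 1, the fish on which the count above rested, 38 were. The shares of expressed genes above their group mean are not given here. On the same log2 scale, the median deviation of the expressed genes was -0.059, 0.024 and 0.081 in these fish, in the order given. That of the 200 genes was 0.37, -0.45 and -0.52.

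Over the 32 BPA fish, after the group means were subtracted, 13.9% of the 19900 pairs among the 200 genes had a correlation above 0.5, and 4.00% of all pairs of genes tested did. These correlations describe fish that share libraries and group means, and have no test. The closest pair was numbers 15 and 26, at 0.98. Number 1 went most closely with number 93, at 0.82, and the identifiers of these 2 genes carry consecutive numbers. The same was true of numbers 17 and 29, at 0.94, and of numbers 33 and 39, at 0.88, and the list held 3 such consecutive pairs in all. For number 29, the BPA4 fish of F2 at 365 dpf had 486, 273, 56.0 and 763 CPM and number 17 had 96.0, 52.6, 8.47 and 147 CPM in the same fish. The fish ranked alike in both genes, with the third fish far below the others. Whether consecutive identifiers are neighbours or copies that share fragments was not tested.

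Across the 200 genes, the log2 ratios with age on raw totals in BPA40 and BPA4 fish had a Pearson correlation of 0.67 in F2 and 0.66 in F1. Between F2 and F1 it was 0.42 within either dose. Genes are not independent replicates, and these values describe the list without a test.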

How the data were processed

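Liver RNA of 48 fish was sequenced with a stranded mRNA kit. Per the submitters' processing notes, reads were mapped with Bowtie2 2.2.6 and TopHat2 2.1.0, and the authors used the Genoscope trout genome and Cufflinks tools. Each deposited table covers 1 time point and gives, per gene and fish, the raw fragment count and the FPKM that Cuffdiff normalized among those fish. The tables' 8 columns of scaled fragments were not used. Groups come from the labels. Titles of the early F2 fish say 140 dpf where their age label says 112 dpf, which was used, and tables and titles name the doses by incubation concentration. Descriptions of the F1 BPA40 fish give the 3 mg/L incubation of the low dose together with 40 ng per egg. Their treatment label and titles name the high dose, which was used, and every F1 BPA40 value rests on it. Of 72 pairs of fish of a group none agreed within sampling noise (chi-square per degree of freedom from 23.7 to 136).

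CPM used totals without the 17 HIDATA genes. The members and lists were chosen with earlier results of these data known. Tests used edgeR 4.0.16 (glmQLFit, glmQLFTest) in R 4.3.3 on counts, with TMM and filterByExpr, for the 32 BPA fish. They were run on simulated counts with the same spread for every gene and few genes changed. The real data differ in both, so that run does not check the tests under the conditions of these data. FPKM levels were only described, and genes given by number were chosen after their values were seen unless listed by rank. Each p comes from edgeR, adjusted by Benjamini-Hochberg within a comparison. Alternatives were DESeq2 1.42.0, other normalizations, filters and fits, a replicate block, and single fish left out. A list chosen without 1 Control fish was added after seeing the data. Identifiers printed were, by rule, the first 2 of the list and the 2 with the smallest p among those lower in BPA40 at F2 365 dpf. Depth was 6244010 to 18668663 fragments a fish without the HIDATA genes, and 6788947 to 19528494 with them.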

Additional observations from a re-analysis of the deposited data

Results flagged for a closer look

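The median level of the 200 genes and the CPM of the 4 genes given by identifier were each checked in the 12 groups, 60 checks in all. In 5 of these checks 1 fish lay far from the other 3. Chance alone would give about 3 if the levels were normally spread, which was not tested. This figure takes no account of how the 4 genes were picked. Numbers 1 and 2 were picked by Control values, and numbers 61 and 48 by small p-values between doses at F2 365 dpf. GSONMT00008810001 (number 1) was at 2386.5 CPM in F2 365 dpf BPA4 replicate 1, above the other 3 fish. GSONMT00078461001 (number 61) was at 77.7 CPM in F2 365 dpf BPA4 replicate 2, above the others, and at 0.961 CPM in F2 112 dpf BPA4 replicate 1, below them. GSONMT00023180001 (number 48) was at 19.3 CPM in F1 365 dpf BPA40 replicate 1, above the others, and at 0.403 CPM in F2 112 dpf Control replicate 2, below them. Without F2 365 dpf BPA4 replicate 2, the log2 fold change of number 61 in BPA40 over BPA4 was -0.80. The median level of the 200 genes gave no such fish in any of the 12 groups.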

How the results depend on the processing

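Across the alternatives, 29 checks of a main result were marked as moved and 200 as the same. A count of genes could be marked only in these ways, so a reversal behind a count could not be recorded. The log2 fold changes checked for the genes given by identifier kept their sign when single fish of a comparison were left out. Without TMM, 9 and 16 of the 200 genes were called between F2 and F1 at 365 dpf in BPA40 and BPA4 fish. With a minimum of 10 fragments in every fish only 80 of the 200 genes could be tested, and 77, 76, 69 and 58 were higher with age in F2 BPA40, F2 BPA4, F1 BPA40 and F1 BPA4 fish, with 2 and 3 called between generations in BPA40 and BPA4. With Control fish in the fit, 1 gene was called for dose at F2 365 dpf and 7 between generations in BPA40. With only the groups compared in a fit, 14 were called between generations in BPA4, and the interactions could not be run. DESeq2 called 1 gene for dose at F2 365 dpf, 1 at F1 365 dpf, and 9 and 15 between generations in BPA40 and BPA4. The shares of all genes called under these alternatives are not given here, so these counts have no background beside them. A minimum of 2 CPM kept 107 of the list, and the same 107 were all that still passed the limits. With a minimum of 0.5 CPM all 200 still passed, among 1743 genes instead of 1037, and 127 stayed in the list. The cause of the other changes was not tested.

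Leaving out 1 fish, genes higher with age ranged from 185 to 189 in F2 BPA40, 174 to 182 in F2 BPA4, 133 to 160 in F1 BPA40 and 89 to 140 in F1 BPA4, dose and interaction counts stayed at 0, generation counts ranged from 0 to 9 in BPA40 and 2 to 5 in BPA4, and the list kept 168 to 194 genes. With a replicate block the age counts were 189, 184, 157 and 145, the dose and interaction counts 0 and the generation counts 6 and 5. The shares of all genes called in these fits are not given here, so these counts have no background beside them. Fish of equal number are different fish, and their deviations correlated at -0.29 to 0.42, in 0 of 10 comparisons above 0.1 for every pair. At the early F2 stage, depth limits genes near 1 CPM.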
